A study of Mus musculus with 3 samples.

Results

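Nr4a1, Nr4a2 and Nr4a3 encode the 3 orphan nuclear receptors of the NR4A family. Their probe sets were taken by gene symbol from a table of 28856 probe sets, in which 19938 genes could be named, and each of the 3 genes had 1 probe set. The genes were picked as known targets of the transcription factors CREB and ATF1, so that cAMP response elements upstream of them are part of the choice and not a finding. Expression was measured in sarcoma cells of mice with an EWS/ATF1 transgene under doxycycline control, on Affymetrix MoGene-1_0-st-v1 arrays, which probe whole transcripts. EWS/ATF1, which fuses a segment of EWSR1, an RNA-binding protein, to ATF1, is the hallmark of clear cell sarcoma in people.

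There were 3 groups with 1 array each, described here as the labels give them. The tumor-labelled array is given as RNA isolated without culture from a tumor that arose in an EWS/ATF1-inducible mouse on doxycycline for 3 months. The high doxycycline-labelled array is given as RNA of cultured tumor cells 24 h after doxycycline was added at 0.2 microg/ml. The control-labelled array is given as RNA of cultured tumor cells at 0 microg/ml, also at 24 h. Marker genes given below go against the labels of the tumor and control arrays. All 3 are labelled as tumor cells of a soft tissue sarcoma from mice of mixed strain (C57/BL6, 129, and ICR). Both cultures carry the number 1297 in their descriptions and the tumor carries 1281. The promoter that drives the transgene and the age of the mouse are not given in these sources.

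NR4A receptors are immediate early genes: cAMP, growth factors, calcium and stress induce them within the hour through CREB family factors, MEF2 factors and serum response factor. Their ligand-binding pockets are filled by side chains of the protein itself, so that their activity is held to depend largely on how much receptor is made. They bind DNA as monomers at a site named NBRE and as dimers at other sites, and Nr4a1 and Nr4a2, but not Nr4a3, form heterodimers with retinoid X receptors. Nr4a1 (Nur77) is known from thymocytes and macrophages, Nr4a2 (Nurr1) from midbrain dopamine neurons, and Nr4a3 (Nor1) from vascular smooth muscle. In human extraskeletal myxoid chondrosarcoma NR4A3 itself is a fusion partner of EWSR1.

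CREB and ATF1 bind the palindromic cAMP response element TGACGTCA and, more weakly, its shorter core TGACG, which reads CGTCA on the other strand. The 250 bases upstream of each gene start, from RefSeq (GRCm38.p6), are shown because they hold the cores through which the family is tied to CREB and ATF1. They are written 5′ to 3′ on the strand of the gene, with every core of either strand in capitals. The windows are chr15:101266596-101266845 on the + strand for Nr4a1, chr2:57124004-57124253 on the - strand for Nr4a2 and chr4:48045055-48045304 on the + strand for Nr4a3. The starts are those of the RefSeq promoter table. For Nr4a3 the record of the RefSeq gene table begins further upstream, inside the window. For Nr4a1 that record begins upstream of the whole window, at 101253902, so that the start used here lies within the gene record.
Nr4a1: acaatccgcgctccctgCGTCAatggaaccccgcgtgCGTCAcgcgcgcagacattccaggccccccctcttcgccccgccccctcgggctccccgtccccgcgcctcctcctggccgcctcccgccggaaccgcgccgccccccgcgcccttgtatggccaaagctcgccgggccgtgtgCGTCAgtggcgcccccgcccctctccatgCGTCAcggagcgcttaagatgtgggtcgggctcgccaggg
Nr4a2: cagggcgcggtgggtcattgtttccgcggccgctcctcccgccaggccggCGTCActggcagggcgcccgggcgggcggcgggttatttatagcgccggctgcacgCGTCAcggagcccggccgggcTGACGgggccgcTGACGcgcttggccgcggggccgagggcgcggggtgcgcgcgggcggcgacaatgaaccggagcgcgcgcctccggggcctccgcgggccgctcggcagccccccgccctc
Nr4a3: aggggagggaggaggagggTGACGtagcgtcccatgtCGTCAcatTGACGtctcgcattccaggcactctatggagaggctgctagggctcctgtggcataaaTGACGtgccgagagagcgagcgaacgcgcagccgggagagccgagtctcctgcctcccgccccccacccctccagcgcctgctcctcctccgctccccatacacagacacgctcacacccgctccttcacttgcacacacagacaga

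Each window held 4 cores, and none held the palindrome, an NBRE (AAAGGTCA) or a CArG box, the site of serum response factor; both strands were searched. All 4 cores of Nr4a1 lay on the opposite strand and ran on from TG, as tgCGTCA. Those of Nr4a2 lay 2 on each strand, and those of Nr4a3 lay 3 on the strand of the gene and 1 on the other. In Nr4a3 the cores from -213 and from -205 lay 3 bases apart on opposite strands. Of 32851 upstream windows of the same length, 17.8% held at least 1 core, 0.688% at least 3 and 45 windows (0.137%) at least 4. The windows of the Nr4a genes were rich in G and C (63.6% to 80.0%), and among 6219 windows in that range 0.402% held at least 4. The palindrome occurred in 1.55%, the NBRE in 1.34% and the CArG box in 1.47% of all windows. These are matches of letters, and a longer window was not searched.

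**Figure D1:**
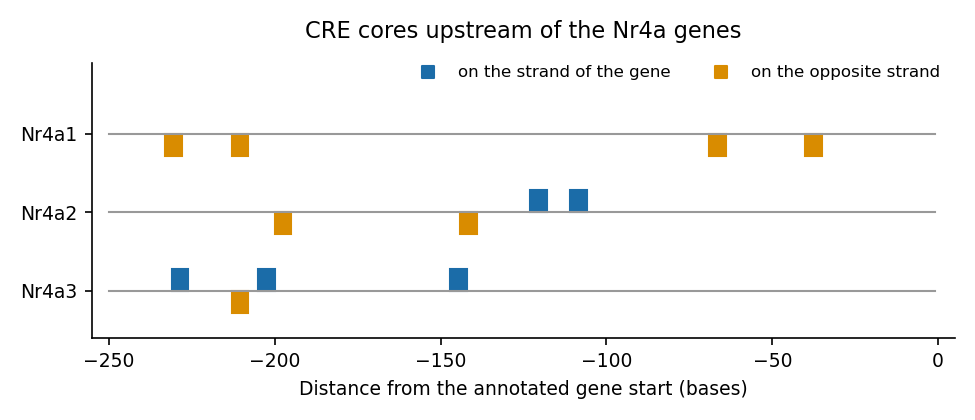
Positions of the cAMP response element core (TGACG or CGTCA) in the 250 bases upstream of Nr4a1, Nr4a2 and Nr4a3, with the distance from the annotated gene start in bases on the horizontal axis. Boxes above a line lie on the strand of the gene and boxes below it on the opposite strand; each gene has 4.

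Since each group has a single array, no difference has a test, all folds describe these 3 arrays, and precision is limited by their number. Differences are between log2(intensity + 1) values, counts take a difference of at least 1 in size (2-fold), and genes were compared only if the brighter of their 2 values exceeded the median of all probe sets on that array (log2 values of 7.79 on the tumor-labelled array, 7.83 on high doxycycline and 7.97 on control). As a yardstick of error within the arrays, probe sets of 1 gene were compared, and the median range of their log2 differences was 0.055 between tumor and high doxycycline, 0.38 between tumor and control and 0.37 between high doxycycline and control. Values were equal for 34.6% of probe sets between tumor and high doxycycline, 16.9% between tumor and control and 21.6% between high doxycycline and control. The part of such equal values in these ranges and in the correlations below was not tested.

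The labels of 2 arrays went against their markers. Of 15 macrophage markers, 1 lay above the array median on the tumor-labelled array, 2 on high doxycycline and 15 on control. For 11 endothelial markers these counts were 2, 2 and 10, for 11 skeletal muscle markers 3, 4 and 11, and for 12 fibroblast and matrix markers 9, 7 and 12. The brightest macrophage marker had an intensity of 248 on tumor, 914 on high doxycycline and 5449 on control, the dimmest had 64.8, 68.0 and 331, and no marker was at 0. Lymphocyte markers lay above the median on 0, 1 and 2 of 9 and adipocyte markers on 0, 0 and 3 of 6. Cell types of a tissue were thus bright on the array labelled as a culture and dim on the array labelled as a tumor. Log2 values over all probe sets correlated at 0.991 between the tumor- and high doxycycline-labelled arrays, against 0.917 for tumor and control and 0.928 for high doxycycline and control (Pearson's r across probe sets, which do not count as independent replicates). Whether these 2 labels were exchanged was not tested, and every direction below is between arrays named by their labels. If they were exchanged, the comparison of treated with untreated culture would be that of the high doxycycline-labelled with the tumor-labelled array, in which Nr4a3 had 3357 against 325. In tissue RNA, fewer cells of a type and less RNA per cell cannot be told apart.

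Nr4a3 was the Nr4a gene with a low value, on the tumor-labelled array. Its intensity was 325 on the tumor-labelled array, 3357 on high doxycycline and 3160 on control. It was thus high on the high doxycycline- and control-labelled arrays and low on the tumor-labelled array, where it lay 1.48 times above the array median, against 14.8 times on high doxycycline and 12.6 times on control. Nr4a3 was 10.3-fold dimmer on the tumor-labelled array than on high doxycycline (log2 difference -3.37) and 9.70-fold dimmer than on control (-3.28).

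Nr4a1 was bright on all 3 arrays. Its intensity was 2165 on the tumor-labelled array, 1955 on high doxycycline and 1764 on control. These values lie within 1.23-fold of each other, with the tumor-labelled array highest and control lowest. The log2 difference was 0.30 for tumor against control, below the median disagreement between probe sets of a gene. It was 0.15 for tumor against high doxycycline, above the smaller median disagreement of that pair. However, 27.3% of 649 genes with several probe sets had probe sets that disagreed at least as much in that pair.

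Nr4a2 was bright on all 3 arrays as well. Its intensity was 1436 on the tumor-labelled array, 1851 on high doxycycline and 1615 on control. The tumor-labelled array was lowest and high doxycycline highest, within 1.29-fold of each other. The log2 difference was -0.37 for tumor against high doxycycline, and 8.17% of 649 genes with several probe sets had probe sets that disagreed at least as much in that pair. It was -0.17 for tumor against control, which became 0.016 with all arrays shifted to a common median.

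**Figure D2:**
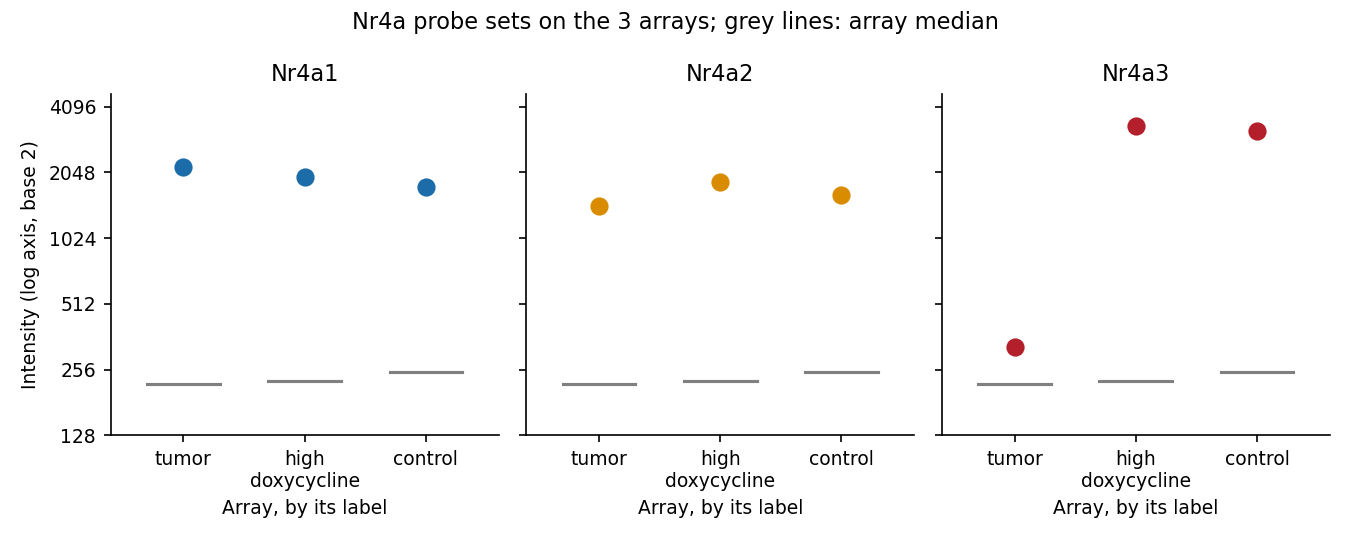
Intensity of the Nr4a1, Nr4a2 and Nr4a3 probe sets (log axis, base 2) on the arrays labelled tumor, high doxycycline and control, 1 point per array, with the median of all 28856 probe sets of each array as a grey line. Nr4a1 and Nr4a2 each lie at a similar height on the 3 arrays, while Nr4a3 has 325 on the tumor-labelled array against 3357 on high doxycycline and 3160 on control.

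The first comparison would ask, by its labels, what a day of doxycycline does to cultured cells, and the Nr4a genes lay close together in it. The log2 difference between the high doxycycline- and control-labelled arrays was 0.15 for Nr4a1 (1.11-fold), 0.20 for Nr4a2 (1.15-fold) and 0.087 for Nr4a3 (1.06-fold), which under quantile normalization became -0.16, -0.11 and -0.18. All of these lie below the median disagreement of 0.37 between probe sets of a gene. None of the 3 genes was 2-fold brighter or dimmer, where 17.4% of 11933 genes were brighter and 8.45% dimmer. Between 73.7% and 82.8% of these genes differed at least as far as the Nr4a genes did. A shift of the arrays to a common median moves every difference of this comparison by 0.14, those of tumor against control by 0.19 and those of tumor against high doxycycline by 0.04.

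The second comparison set the tumor-labelled array against control. Of the 3 Nr4a genes, Nr4a3 was at least 2-fold dimmer and none was brighter, where 10.2% of 12010 genes were dimmer and 18.5% brighter. Of these genes, 146 had a lower difference than Nr4a3. Between probe sets of a gene, a disagreement as large as its difference was found for 0.894% of 671 genes. The 3 receptors differed from each other here: the difference of Nr4a3 lay 3.57 below that of Nr4a1 and 3.11 below that of Nr4a2 on the log2 scale, while Nr4a1 lay 0.46 above Nr4a2.

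The third comparison set the tumor-labelled array against high doxycycline, the 2 arrays that were most alike. It shares an array with each of the other comparisons, and so does not repeat them independently. Nr4a3 was again the single Nr4a gene past 2-fold, on the dimmer side, where only 1.94% of 11212 genes were dimmer and 1.58% brighter. In this pair 5 genes had a lower difference than Nr4a3. They were Cyp3a44, a cytochrome P450 gene (43.4-fold dimmer, 45.5 against 2014), the prolactin family gene Prl7b1 (30.8-fold, 76.2 against 2380), Ucp1, the uncoupling protein of brown fat (17.8-fold, 150 against 2685), the cytokine receptor gene Csf2rb2 (11.2-fold, 231 against 2591) and the cytokine gene Tslp (10.8-fold, 183 against 1996), all named after their values were seen. Cyp3a44 and Csf2rb2 have close relatives in the mouse genome, so that their values are uncertain. No gene with several probe sets in this pair had probe sets that disagreed by as much as Nr4a3 differed. The difference of Nr4a3 lay 3.51 below that of Nr4a1 and 3.00 below that of Nr4a2.

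**Figure D3:**
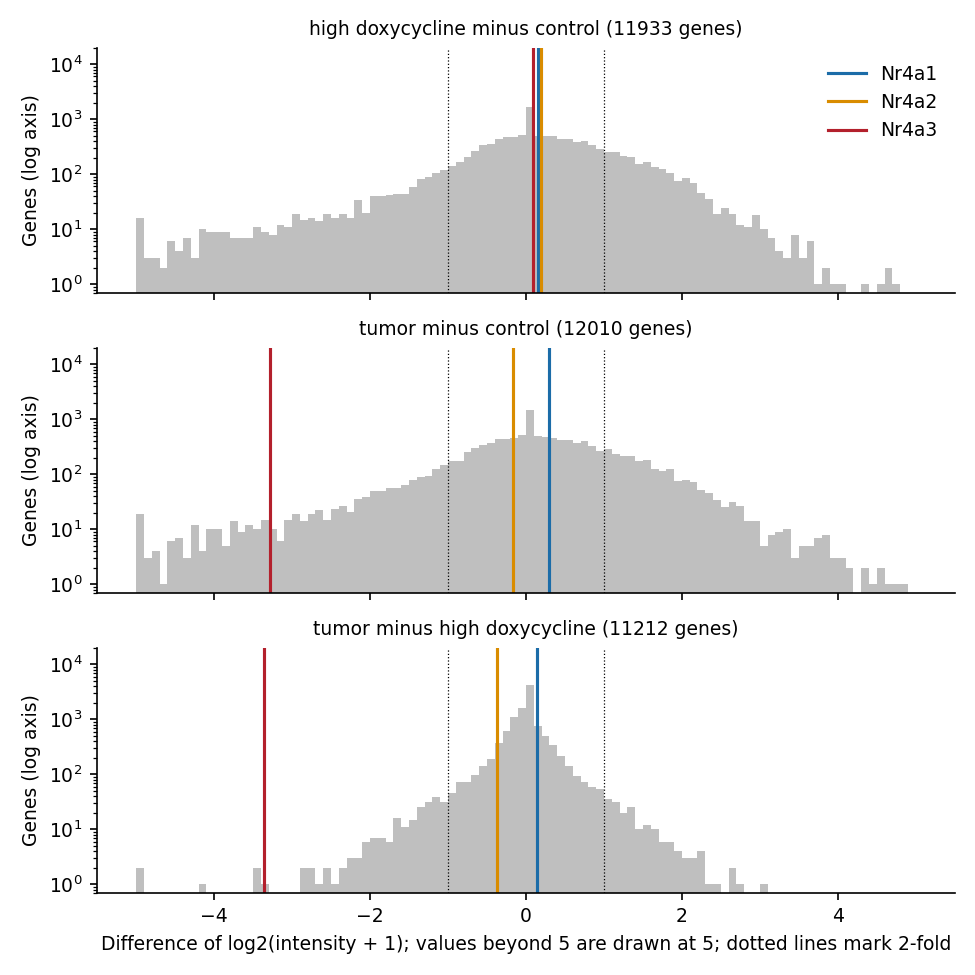
Histograms of the differences of log2(intensity + 1) over all genes above the brightness filter (gene counts on a log axis) for high doxycycline minus control, tumor minus control and tumor minus high doxycycline, with Nr4a1, Nr4a2 and Nr4a3 as coloured lines and 2-fold as dotted lines. In the first panel all 3 lines lie near 0, and in the others the line of Nr4a3 lies at -3.28 and -3.37.

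Genes most like each receptor over the 3 arrays were found by the Euclidean distance between log2 values centred on each gene's own mean, among 11719 genes. The nearest to Nr4a3 was Aif1l (distance 0.44), with 315 on the tumor-labelled array, 2126 on high doxycycline and 2574 on control. It was followed by Csf2rb2 (0.79), the lipid droplet gene Cidea (0.85), the cyclin gene Ccna2 (0.85), which drives S-phase and entry into mitosis, and Cd14 (0.90), a lipopolysaccharide co-receptor of myeloid cells. Cd14 had 158 on the tumor-labelled array, 914 on high doxycycline and 650 on control. It was 1 of the 2 macrophage markers that lay above the array median on high doxycycline.

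Nr4a1 and Nr4a2, which differed little between arrays, had many close neighbours, and their nearest genes say little beyond that. The nearest to Nr4a1 were Ift46 (distance 0.0053), Pick1, Arfip2, Cenpv and Shpk (0.022). The nearest to Nr4a2 were Ablim3 (0.011), Sec23ip, Naa25, Olfml3 and Jpt2 (0.028). By rank the family members were not near each other. Nr4a2 ranked 4864 for Nr4a1 (distance 0.40) and 2030 for Nr4a3 (2.50), and Nr4a1 ranked 7238 for Nr4a3 (2.89). The distance between Nr4a1 and Nr4a2 was nonetheless below that of Nr4a3 to its nearest gene, Aif1l (0.44).

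Upstream of the receptors, genes of a list of activators and related factors passed 2-fold in shares near those of all genes where control was compared. Not every listed gene is a known activator of the Nr4a genes. The list of CREB family members, coactivators, Ewsr1, protein kinase A subunits and MEF2, SRF and NFAT factors had 20 measured genes of 22. Between tumor and control 3 of 20 were brighter (15.0%, against 18.5% of all genes) and 1 dimmer (against 10.2%). Between high doxycycline and control 3 of 19 were brighter (15.8%, against 17.4%) and 1 dimmer (5.26%, against 8.45%), and between tumor and high doxycycline 0 of 19 were brighter and 1 dimmer, against 1.58% and 1.94% of all genes. The list medians were -0.016, -0.052 and 0 on the log2 scale, against 0.075, 0.083 and 0 over all genes, and the first 2 turn positive with a common median. Mef2a, which encodes a MEF2 factor, had 5477 on the tumor-labelled array, 4011 on high doxycycline and 1087 on control. It was thus lowest on control, like Creb1 (1264 on tumor, 1094 on high doxycycline and 549 on control) and Atf2 (1779, 1624 and 755 on the same arrays). Atf2 fell short of 2-fold between high doxycycline and control under quantile normalization (0.85), and Creb1 reached it there with a common median (1.13). Nfatc1, a calcium-responsive factor, was brightest on control, with 281 on tumor, 331 on high doxycycline and 908 on control.

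Crem, the CREB relative whose short ICER forms repress cAMP response elements, was the gene of this list past 2-fold between the tumor- and high doxycycline-labelled arrays. It had 711 on the tumor-labelled array, 1610 on high doxycycline and 464 on control. It was thus highest on high doxycycline, 2.26-fold above tumor and 3.46-fold above control. The fusion partners differed less: Atf1 had 933 on tumor, 1063 on high doxycycline and 1189 on control, and Ewsr1 had 1624, 1650 and 1660 on the same arrays. Whether these mouse probe sets detect the transgene is not given in these sources.

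Other genes with cAMP response elements give the nearest parallel to the Nr4a family, and they too were split. Of 30 listed, 29 were measured. Between tumor and control 5 of 27 were at least 2-fold dimmer (18.5%, against 10.2% of all genes) and 3 brighter (11.1%, against 18.5%), with a median of -0.45. Under quantile normalization 8 were dimmer and 2 brighter, where 1371 of 12041 genes were dimmer and 1947 brighter. With probe sets averaged per gene 5 were dimmer and 5 brighter, where 1204 of 11931 genes were dimmer and 2214 brighter. Fos, an AP-1 subunit and the gene in the title of the series, had 302 on the tumor-labelled array, 1234 on high doxycycline and 1114 on control. Its order on the arrays was that of Nr4a3, with a smaller gap: it was 4.07-fold dimmer on tumor than on high doxycycline and 3.68-fold dimmer than on control. Nfil3, a bZIP repressor, had 771 on tumor, 1807 on high doxycycline and 3336 on control. The clock genes Per1 and Per2 and the zinc finger factor gene Egr1 were the other dimmer genes. Per1 had 575 on tumor, 527 on high doxycycline and 2287 on control, and so was low on both arrays that Nr4a3 separates. Per2, Egr1, Rgs2 and Atf3 are named here after their values were seen. Per2 was 2.32-fold and Egr1 2.88-fold dimmer on tumor than on control.

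Brighter on tumor than on control in that list were the granule protein gene Scg2, the prohormone convertase gene Pcsk1 and the G-protein regulator gene Rgs2. Scg2 had 6559 on the tumor-labelled array, 4544 on high doxycycline and 436 on control. Pcsk1 had 8593 on tumor, 8286 on high doxycycline and 2720 on control. Rgs2 was 2.29-fold brighter on tumor than on control. In the comparison of high doxycycline with control, 4 of 27 genes of the list were brighter (Scg2, Crem, Pcsk1 and the stress factor gene Atf3) and 2 dimmer (Per1 and Per2), which is 14.8% and 7.41%, against 17.4% and 8.45% of all genes, with a median of 0. Under quantile normalization 3 were brighter and 5 dimmer, where 1741 of 11955 genes were brighter and 1195 dimmer.

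Between the tumor- and high doxycycline-labelled arrays, 4 of 24 CRE-containing targets were dimmer (16.7%, against 1.94% of all genes) and 1 was brighter (4.17%, against 1.58%). With the filter at percentile 75, 3 were dimmer, where 144 of 5860 genes were dimmer. The list was drawn up with earlier results of these data known, so that these shares do not stand apart from that choice. Crem is counted both here and in the list of activators. The dimmer genes were Fos, Nfil3 (2.34-fold), the small Maf factor gene Maff (2.33-fold, 256 on tumor against 598 on high doxycycline) and Crem, and the brighter gene was Rgs2 (2.06-fold). The median was -0.051, against 0 over all genes. Of 22 listed genes with an upstream window, 18 held a core, 7 the palindrome and 3 at least 3 cores. Of all 32851 windows, 17.8% held a core, 1.55% the palindrome and 0.688% at least 3 cores. The genes were listed as carriers of cAMP response elements, so that these counts are part of the choice. A gene with several windows was counted at its highest, while the shares over all windows count each window. Fos held 2 cores and no palindrome, Pcsk1 held 3 with a palindrome and Scg2 2 with a palindrome. Cores stood upstream of genes that were dimmer on tumor than on control, such as Fos and Nr4a3, both without a palindrome. They also stood upstream of genes that were brighter: Pcsk1 and Scg2, with a palindrome, and Rgs2, with 2 cores and no palindrome. The part of cores in these directions was not tested.

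Over all genes other than the Nr4a family with an upstream window, those with at least 3 cores numbered 147 in the comparison of tumor with high doxycycline. Of these, 1 was at least 2-fold brighter and 2 dimmer (0.680% and 1.36%), against 1.58% and 1.81% of 9058 genes. In the comparison of tumor with control 34 of 147 were brighter and 5 dimmer (23.1% and 3.40%), against 18.8% and 8.98% of 9602 genes. For high doxycycline against control 29 of 149 were brighter and 2 dimmer (19.5% and 1.34%), against 17.7% and 7.45% of 9536 genes. The part of base composition in these shares was not tested.

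Among the partners of the receptors, the retinoid X receptor gene Rxrg differed most in both comparisons with the high doxycycline-labelled array. It had 992 on the tumor-labelled array, 3474 on high doxycycline and 395 on control. It was thus highest on high doxycycline, 3.50-fold above tumor and 8.77-fold above control. The other heterodimer partners differed by less than 2-fold, with 2700 on tumor, 2700 on high doxycycline and 2963 on control for Rxra, and 1008, 886 and 1525 on the same arrays for Rxrb. Cited2, a CBP/p300-binding coregulator, had 11019 on tumor, 5485 on high doxycycline and 2493 on control. Its difference between tumor and high doxycycline was at the 2-fold line (2.01-fold), and that between high doxycycline and control was 0.87 under quantile normalization, against 1.14 as deposited. Of the 16 partners and cofactors measured of 20 listed, 2 of 15 were brighter (13.3%, against 18.5% of all genes) and 0 dimmer (against 10.2%) on tumor than on control. On high doxycycline 2 of 14 were brighter than on control (14.3%, against 17.4%) and 0 dimmer (against 8.45%), and 1 of 15 was brighter and 1 dimmer on tumor than on high doxycycline, against 1.58% and 1.94% of all genes. Their medians were -0.021, -0.056 and 0, and the first 2 turn positive with a common median.

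Downstream, genes reported as NR4A targets in other tissues were measured for 32 of 34 listed. Of these, 12 passed the brightness filter between the tumor- and high doxycycline-labelled arrays, and 0 were 2-fold brighter or dimmer (median 0.029), which at 1.58% and 1.94% of all genes is near the background. Between tumor and control 3 of 15 were dimmer (20.0%, against 10.2% of all genes) and 0 brighter (against 18.5%), with a median of -0.33. Between high doxycycline and control 3 of 15 were dimmer (against 8.45%) and 0 brighter (against 17.4%), with a median of -0.26. With a common median 2 genes were dimmer in each of these comparisons, and 1 was brighter on tumor than on control. Over all genes, 968 of 12041 were then dimmer and 2764 brighter on tumor than on control, and 848 of 11955 dimmer on high doxycycline than on control. The dimmer genes of the list as deposited were Vcam1, an adhesion molecule of activated endothelium, with 77.1 on tumor, 86.0 on high doxycycline and 1014 on control, Pygm, the glycogen phosphorylase of muscle, with 166, 159 and 1904 on the same arrays, and the phosphatidate phosphatase gene Lpin1, with 881, 846 and 1827. Lpin1 fell short of 2-fold in both comparisons with a common median (-0.87 and -0.97). Vcam1 and Pygm are expressed by vessel and muscle cells, whose marker lists had medians of -2.51 and -4.28 for tumor against control, and the part of those cells in these values was not tested.

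Other nuclear receptors had values for 42 of 46 genes. Between tumor and high doxycycline 1 of 23 was brighter and 1 dimmer (4.35% each, against 1.58% and 1.94% of all genes). The oestrogen receptor gene Esr1 had 1436 on the tumor-labelled array, 387 on high doxycycline and 218 on control, and the dimmer gene was Rxrg. Between tumor and control 4 of 24 were brighter (16.7%, against 18.5%) and 2 dimmer (8.33%, against 10.2%), shares near those of all genes. The brighter genes included Esr1 (6.55-fold) and the glucocorticoid receptor gene Nr3c1 (2.44-fold, 1139 against 466), and the dimmer genes Ppard (3.08-fold, 1258 against 3880). Between high doxycycline and control 2 of 24 were brighter and 2 dimmer (8.33% each, against 17.4% and 8.45%). The brighter genes were Rxrg and Nr2c1 (2.22-fold), of which Nr2c1 was just short of 2-fold under quantile normalization. The dimmer genes were the vitamin D receptor gene Vdr (2.39-fold) and the retinoic acid receptor gene Rara (2.09-fold), and Rara was at -0.92 with a common median and -0.98 with a pseudocount of 64. None of the other nuclear receptors above the filter was as far dimmer on tumor as Nr4a3, against control or against high doxycycline.

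Most macrophage, endothelial, muscle and matrix markers were at least 2-fold brighter on the control-labelled array than on both others. The matrix gene Col1a1 had 332 on the tumor-labelled array, 343 on high doxycycline and 10030 on control, the macrophage lysozyme gene Lyz2 had 64.8, 68.0 and 3932, Cdh5, the cadherin of endothelium, had 106, 135 and 2098, and Ckm, the creatine kinase of muscle, had 210, 238 and 4795 on the same arrays. Between the tumor- and high doxycycline-labelled arrays Col1a1 and Ckm differed by less than 2-fold. Lyz2 and Cdh5 did not pass the brightness filter in that pair, so that their values there show no comparison. Between tumor and high doxycycline 1 of 2 macrophage markers above the filter was dimmer (Cd14), 1 of 2 endothelial markers (Egfl7, 2.06-fold, which was short of 2-fold with a common median and, at -0.98, with a pseudocount of 64), 0 of 4 muscle markers, 0 of 9 matrix markers and 0 of 1 lymphocyte marker, and no adipocyte marker passed the filter. In the comparisons with control the same lists were almost wholly dimmer: on tumor 15 of 15 macrophage, 10 of 10 endothelial, 11 of 11 muscle and 12 of 12 matrix markers, and on high doxycycline 14 of 15, 10 of 10, 11 of 11 and 12 of 12. Of lymphocyte markers 1 of 2 and of adipocyte markers 2 of 3 were dimmer in each of these comparisons. Over all genes, the dimmer share relative to control was 10.2% on tumor and 8.45% on high doxycycline. On tumor relative to high doxycycline it was 1.94%, so that counts of 0 among so few markers say little. The part of the marked cell types in the Nr4a values of the control-labelled array was not tested.

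**Figure D4:**
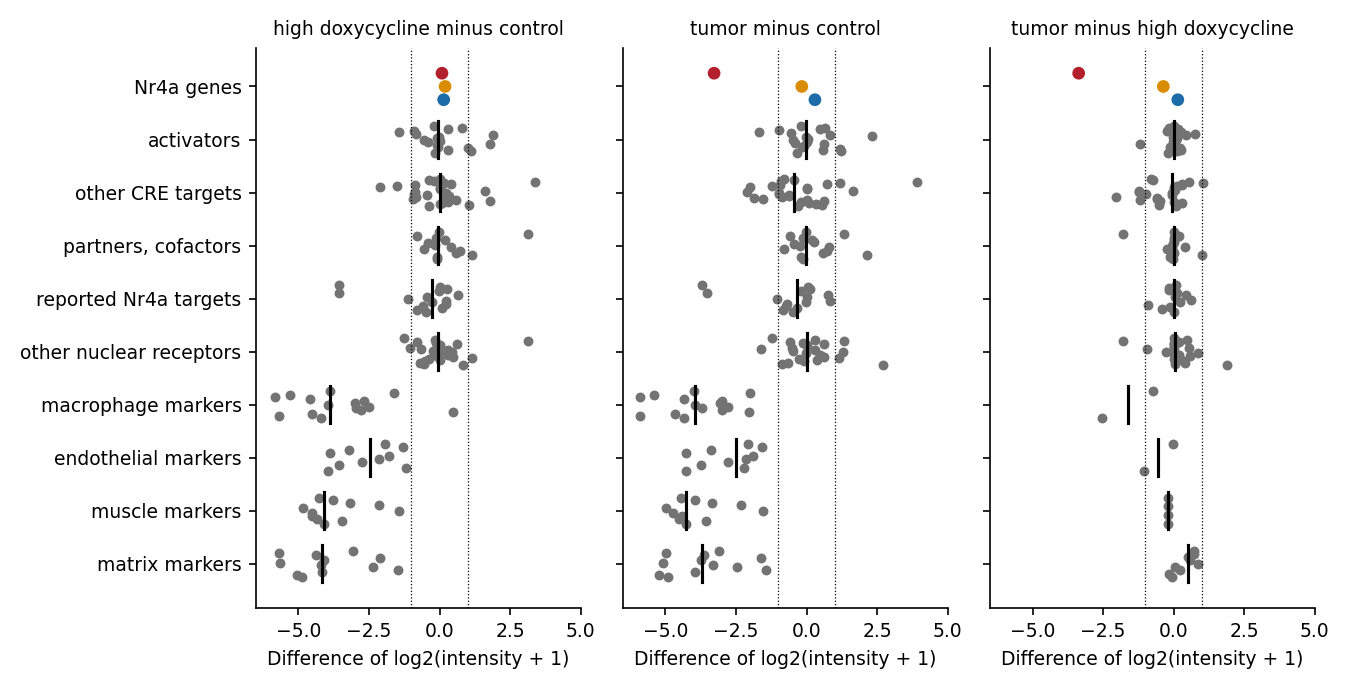
Differences of log2(intensity + 1) for the Nr4a genes (coloured as in the plot of intensities by array), for lists of their activators and related factors, other CRE-containing targets, partners, reported targets and other nuclear receptors, and for markers of other cells, 1 point per gene above the brightness filter, with list medians as black bars and 2-fold as dotted lines. Nr4a3 lies at -3.28 for tumor minus control and -3.37 for tumor minus high doxycycline, while most marker genes lie far below 0 for tumor minus control and high doxycycline minus control.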

How the data were processed

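Total RNA from an RNeasy kit was fragmented, biotin-labelled and measured on Affymetrix MoGene-1_0-st-v1 arrays, per the labels. The authors deposited linear intensities, 1 for each probe set; their background correction, probe summary and normalization are not given in these sources. Identical values on all 3 arrays occurred for 14.95% of 28856 probe sets, but none of the Nr4a probe sets had equal values on any pair. Genes were named through the platform annotation (21789 probe sets with 1 symbol, 1621 with several, 5446 with none), of which 21698 matched the RefSeq table (GRCm38.p6) by Entrez number. For 999 genes with several probe sets the brightest was used. Differences were taken after log2(intensity + 1), which understates changes of dim genes. Groups came from titles and the design text. No test was possible with 1 array per group.

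The Nr4a genes, 11 lists (218 entries, 15 without a probe set of their own) and the alternatives were chosen with earlier results of these data known. Named genes are the Nr4a genes, Fos, Atf1 and Ewsr1, up to 4 genes past 2-fold per list and comparison, and the 5 genes most like each Nr4a gene; others are said to be named after their values were seen, and Creb1, Rxra and Rxrb are given as direct partners or activators. The alternatives were a common median, quantile normalization, pseudocounts of 16 and 64, the mean of all probe sets, no brightness filter and a filter at percentile 75. Promoters were 250-base windows of RefSeq. Computation used Python 3.11.15, numpy 2.4.6 and pandas 2.3.3, and was tested on simulated data.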

Additional observations from a re-analysis of the deposited data

How the results depend on the processing

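The low Nr4a3 value on the tumor-labelled array kept its direction and stayed past 2-fold under all 5 alternatives that apply to a single gene. Among these, the mean of all probe sets could not move any Nr4a value, since each Nr4a gene has 1 probe set. Against high doxycycline the Nr4a3 log2 difference of -3.37 was -3.22 under quantile normalization, -3.31 with a pseudocount of 16 and -3.14 with a pseudocount of 64. Against control it ran from -3.40 to -3.05. Nr4a1 and Nr4a2 stayed within 2-fold in every comparison under these alternatives. Their sign, and that of Nr4a3, was not stable for high doxycycline against control, where the ranges were -0.16 to 0.29 for Nr4a1, -0.11 to 0.34 for Nr4a2 and -0.18 to 0.23 for Nr4a3, nor for Nr4a2 between tumor and control (-0.44 to 0.016). With the filter at percentile 75, which leaves fewer genes, 569 genes were dimmer on high doxycycline than on control (1008 as reported) and 691 on tumor than on control (1222), and between tumor and high doxycycline 103 were brighter (177) and 144 dimmer (217). Other counts over all genes stayed within 1.5 times. No paired analysis was possible because each group has 1 array, and for the same reason no replicate could be left out. No depth is known for arrays, so that the number of arrays limits every value, and none of these alternatives bears on which RNA each array carries.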
